A study of Mus musculus with 18 samples.

Results

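The platelet-derived growth factor (PDGF) system of the mouse comprises 6 genes, 2 for receptors (Pdgfra and Pdgfrb) and 4 for ligand chains (Pdgfa, Pdgfb, Pdgfc and Pdgfd). They were taken by symbol from the 37991 Ensembl gene identifiers counted in a kidney RNA-sequencing time course, and all 6 had reads in each of the 18 libraries. The libraries came from Balb/c kidneys at day 1, day 2, day 3, day 7 and day 14 after folic acid and from untreated Balb/c kidneys, with 3 libraries in each of the 6 groups. Male mice weighing 25 to 29 g had been given 1 intraperitoneal injection of folic acid at 250 mg/kg in 0.3 M sodium bicarbonate, a dose at which the compound injures the tubules of the kidney. The labels give no age, no genotype other than the strain, and no group injected with bicarbonate alone, so effects of folic acid and of its vehicle cannot be told apart. They also do not say whether the libraries of a group came from separate mice, and the p-values below therefore measure the spread between these libraries only.

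PDGF chains are secreted as dimers that bring 2 receptor molecules together and switch on their tyrosine kinases. The alpha receptor binds the A, B and C chains, whereas the beta receptor binds mainly the B and D chains. In the kidney both receptors are known from mesenchymal cells, namely interstitial fibroblasts, pericytes and the mesangial cells of the glomerulus, and the ligands come from tubular epithelium, endothelium, platelets and macrophages. Signalling through these receptors drives the growth of mesangial cells and the expansion of matrix-producing cells in scarring kidneys.

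Assigned reads ran from 8.68 M to 54.6 M per library, of which 59.0% to 75.6% came from mitochondrial genes. All 8 genes chosen to mark kidney tissue had reads in every library, and their summed level was 763 to 933 CPM (read counts scaled to an equal library total) at day 1 and 3531 to 3854 CPM in untreated kidneys. Replicate 2 of day 2 was the shallowest library, and it held 4 to 40 reads for each PDGF gene. In every library a few genes stood at least 10-fold above both other libraries of the group at 5 CPM or more. There were 158 of them, 0.939% of the genes tested, in replicate 2 of day 2, and 14 to 47 in each of the other libraries. The sources used here do not give the strand setting of the counts, and reads of antisense genes that overlap exons of Pdgfra, Pdgfa and Pdgfc cannot be told apart from theirs. All levels, here and below, are CPM after scaling of the libraries by the trimmed mean of M values. Tests are edgeR quasi-likelihood tests of 16824 genes with p-values adjusted by the Benjamini-Hochberg method over all of them, and an adjusted p under 0.05 is called a change.

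Pdgfra changed most among the 6 genes. Its level was low on the first days after folic acid and higher at day 7 and day 14, and it was the only PDGF gene with a difference across the 6 groups (adjusted p = 0.000904, edgeR quasi-likelihood test), against 19.7% of all genes tested. Pdgfrb had its highest mean levels at day 7 and day 14. None of the 4 ligand genes passed the edgeR test as described above in any comparison with all libraries included. Other settings with all libraries called 2 of them. With no low-count filter Pdgfb was lower at day 14 (log2 fold change −2.99, adjusted p = 0.0350) and differed across the groups (adjusted p = 0.0288) in edgeR. With scaling by library totals Pdgfd was higher at day 7 (log2 fold change 1.78, adjusted p = 0.0228) and differed across the groups (adjusted p = 0.0439). One untreated library set the direction for Pdgfb, and without it Pdgfb was higher at day 1, day 3 and day 7.

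Against the same untreated libraries, 1 of the 6 genes changed at day 1 (Pdgfra, lower), where 10.7% of all genes did. At day 2 it was again 1 of 6 (Pdgfra, lower), against 13.2% of all genes. No member changed at day 3, where 7.61% of genes did and 1 of the 6 had an unadjusted p under 0.05 in edgeR. At day 7 1 of the 6 rose (Pdgfrb), against 7.72%. At day 14 no member changed, against 1.55% of genes, and 2 of the 6 had an unadjusted p under 0.05 in edgeR. DESeq2 called 0 members at day 3 and 1 at day 14. These shares are close to those of genes in general, and the counts say nothing particular about the family.

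The alpha receptor gene, Pdgfra, encodes the receptor that marks fibroblasts in many tissues. In the 3 untreated libraries it stood at 22.3, 3.71 and 3.76 CPM. At day 1 the values were 1.49, 1.80 and 2.09 CPM, and at day 2 they were 1.65, 0.676 and 1.65 CPM. All 6 libraries of day 1 and day 2 lay below the lowest untreated value, as 15.1% and 14.8% of all genes did on those days, and replicate 1 stood apart among the untreated libraries. At day 3 Pdgfra had 6.17, 16.1 and 4.33 CPM, at day 7 it had 12.4, 26.4 and 15.9 CPM, and at day 14 it had 19.3, 20.0 and 26.9 CPM. Every day 3 library was above every day 2 library, as for 9% of all genes, and the same held for Pdgfrb and Pdgfb. The day 7 and day 14 libraries of Pdgfra overlapped with each other and with replicate 1 of the untreated group.

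Pdgfra averaged 1.79 ± 0.300 CPM at day 1 and 9.92 ± 10.7 CPM in untreated kidneys (SD, n = 3 each), a fall of 5.49-fold (log2 fold change −2.46, SE 0.63, adjusted p = 0.0167, edgeR quasi-likelihood test). At day 2 it averaged 1.33 ± 0.563 CPM, which was 6.99-fold below untreated (log2 fold change −2.81, SE 0.66, adjusted p = 0.00832, edgeR). Both calls rested on replicate 1 of the untreated group. Without that library the log2 fold change was −1.06 at day 1 (adjusted p = 0.250, edgeR) and −1.42 at day 2 (adjusted p = 0.104, edgeR). The day 1 call was also lost without replicate 1 or replicate 2 of day 1, at adjusted p = 0.0714 and 0.0640 in edgeR, while the log2 fold change stayed at −2.35 and −2.45. Leaving out any 1 untreated or day 1 library lowered the number of all genes called at day 1. It was 1164 to 1379 in those fits, against 1792 with all libraries.

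At the later times the same untreated library worked the other way. With all libraries, Pdgfra did not pass the test at day 3 (log2 fold change −0.16, adjusted p = 0.919), day 7 (0.88, adjusted p = 0.434) or day 14 (1.16, adjusted p = 0.372) in edgeR. Without untreated replicate 1 the log2 fold change was 2.28 at day 7 (adjusted p = 0.0263) and 2.55 at day 14 (adjusted p = 0.0437) in edgeR, and it was 1.23 at day 3 with an adjusted p of 0.214.

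A further 2 comparisons, which use no untreated library, were added after these values had been seen. Pdgfra averaged 18.2 ± 7.33 CPM at day 7 and 1.79 ± 0.300 CPM at day 1 (SD, n = 3 each), and it was 10.1-fold higher at day 7 (log2 fold change 3.34, SE 0.65, adjusted p = 0.00644, edgeR). It averaged 22.0 ± 4.18 CPM at day 14 and 1.33 ± 0.563 CPM at day 2, and it was 15.6-fold higher at day 14 (log2 fold change 3.96, SE 0.68, adjusted p = 0.00158, edgeR). The groups did not overlap in either comparison, as for 12.6% and 13.7% of all genes in that direction. Pdgfrb too was higher in every day 7 library than in every day 1 library, without being called (adjusted p = 0.310, edgeR). Pdgfra was the 1 member called in each, against 4.51% of all genes between day 7 and day 1 and 9.43% between day 14 and day 2. Both calls held under all 14 alternatives tried for each, with log2 fold changes of 2.96 to 3.88 and of 3.74 to 4.11.

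Between neighbouring times no member changed in edgeR, against 0.0594% of all genes from day 1 to day 2, 0.25% from day 2 to day 3, and 0.0178% both from day 3 to day 7 and from day 7 to day 14. At an unadjusted p under 0.05 edgeR gave 1, 1, 0 and 1 members in those 4 steps. DESeq2 called 1 member from day 2 to day 3 and none in the other steps. That member was Pdgfra, with a log2 fold change of 2.65 at day 3 against day 2 (SE 0.65, adjusted p = 0.0769 in edgeR, 0.00333 in DESeq2).

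**Figure D1:**
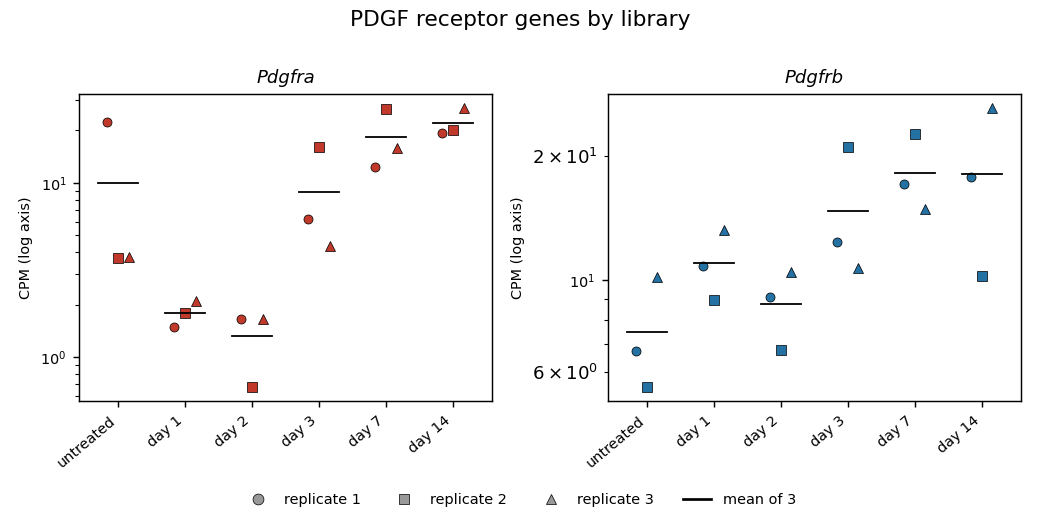
CPM of Pdgfra and Pdgfrb in each library on a log axis, by group from untreated to day 14, with markers for replicates and a bar at the mean of 3. Pdgfra lies at 0.676 to 2.09 CPM in all day 1 and day 2 libraries and at 12.4 to 26.9 CPM in all day 7 and day 14 libraries, and untreated replicate 1, at 22.3 CPM, stands apart from the other untreated libraries.

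The promoter of Pdgfra is shown because its transcript moved most, with those of Pdgfa and Pdgfd as 2 ligand promoters of differing composition. RefSeq windows from 250 bases before to 50 bases after a transcript start were taken for 4 of the 6 genes. They are in build GRCm38.p6, and Pdgfa had 2 of them. Pdgfrb was left out of the search, so the count does not show whether it has such a window. No window was found for Pdgfb. The Pdgfra window is chr5:75152001-75152300 on the plus strand, the Pdgfa window is chr5:138994895-138995194 on the minus strand, and the Pdgfd window is chr9:6168236-6168535 on the plus strand. Capitals mark matches to GGGCGG (the GC box) or TATAAA (the letters of a TATA box) on either strand.
Pdgfra: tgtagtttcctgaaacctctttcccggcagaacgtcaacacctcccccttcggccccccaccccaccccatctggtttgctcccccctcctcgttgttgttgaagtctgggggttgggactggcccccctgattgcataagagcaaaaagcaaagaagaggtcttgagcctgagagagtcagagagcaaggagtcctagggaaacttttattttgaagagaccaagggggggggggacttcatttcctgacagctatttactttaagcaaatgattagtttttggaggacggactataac
Pdgfa: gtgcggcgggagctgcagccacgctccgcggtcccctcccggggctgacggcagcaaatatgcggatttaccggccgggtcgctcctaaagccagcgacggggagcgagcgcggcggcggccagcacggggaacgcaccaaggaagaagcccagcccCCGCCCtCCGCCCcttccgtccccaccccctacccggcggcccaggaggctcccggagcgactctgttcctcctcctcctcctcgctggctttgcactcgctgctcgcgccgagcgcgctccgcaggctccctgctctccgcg
Pdgfd: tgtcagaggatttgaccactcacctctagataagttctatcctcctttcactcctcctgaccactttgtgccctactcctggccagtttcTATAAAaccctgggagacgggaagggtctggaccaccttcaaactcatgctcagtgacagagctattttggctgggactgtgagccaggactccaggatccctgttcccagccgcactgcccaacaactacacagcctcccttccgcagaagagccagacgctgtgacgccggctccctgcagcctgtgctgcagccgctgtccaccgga
The GC content was 51.0% in the Pdgfra window, 73.3% in the Pdgfa window and 56.7% in the Pdgfd window, beside a median of 52.7% over 32851 mouse promoter windows. The Pdgfa window held 2 matches to GGGCGG, which 35.7% of all windows hold, and the Pdgfd window held 1 match to TATAAA, which 13.6% hold. That match began 160 bases before the transcript start, whereas a working TATA box lies close to the start. The other motifs searched, on both strands, were GCGNGGGCG (in 5.55% of windows), TGANTCA (7.81%), CCAAT (37.4%) and CACGTG (7.15%). A GCGNGGGCG site can contain a GGGCGG match in part. None of these letters occurred in the Pdgfra window, which says nothing about the factors that act there.

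The beta receptor gene, Pdgfrb, is the receptor of pericytes and mesangial cells. It stood at 6.74, 5.52 and 10.2 CPM in the untreated libraries. It had 10.8, 8.98 and 13.3 CPM at day 1, 9.11, 6.76 and 10.5 CPM at day 2, and 12.4, 21.0 and 10.7 CPM at day 3. At day 7 it had 17.1, 22.6 and 14.9 CPM and at day 14 17.8, 10.3 and 26.2 CPM. Day 1 and day 2 overlapped with untreated, while every library of day 3, day 7 and day 14 was above the highest untreated library, at day 14 by a narrow margin in replicate 2. Libraries wholly above the untreated ones were found for 14.8% of all genes at day 3, 14.9% at day 7 and 11.7% at day 14.

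Pdgfrb averaged 18.2 ± 3.97 CPM at day 7 and 7.49 ± 2.43 CPM in untreated kidneys (SD, n = 3 each), a rise of 2.44-fold (log2 fold change 1.29, SE 0.38, adjusted p = 0.0450, edgeR quasi-likelihood test). The call held under 7 of 14 alternatives, and among the fits that left out 1 library it held only without untreated replicate 3. Those fits called 607 to 1014 of all genes at day 7, against 1298 with all libraries. At day 14 the log2 fold change was 1.28 (SE 0.38, adjusted p = 0.0999 in edgeR, 0.0288 in DESeq2), and at day 3 it was 0.98 (SE 0.38, adjusted p = 0.125, edgeR). At day 1 and day 2 it was 0.56 and 0.24, with adjusted p = 0.401 and 0.732 in edgeR. Pdgfrb did not share the low early values of Pdgfra, but whether the time courses of the receptors differ was tested only through the balance between them.

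That balance was measured as the share of alpha receptor in the summed receptor level per kb of exon. All annotated exons of a gene were merged for this length, which was 10024 bases for Pdgfra and 5478 bases for Pdgfrb. The size of the shares depends on these lengths, which are not lengths of transcripts measured in these kidneys. The alpha share was 64.4%, 26.9% and 16.7% in the untreated libraries. It was 7.00%, 9.88% and 7.92% at day 1 and 9.01%, 5.18% and 7.95% at day 2. It was 21.4%, 29.6% and 18.1% at day 3, 28.3%, 39.0% and 36.7% at day 7, and 37.1%, 51.6% and 35.9% at day 14. The day 1 and day 2 shares lay below every untreated share, and the shares of day 3, day 7 and day 14 overlapped with untreated.

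At day 1 the alpha share averaged 8.26% ± 1.47 and in untreated kidneys 36.0% ± 25.1 (SD, n = 3 each). An exact two-sided permutation test gave p = 0.1 for day 1 and for day 2, the smallest it can give with 3 libraries against 3 (0.25 after adjustment over 5 comparisons). For day 3, day 7 and day 14 the exact permutation p was 0.7, 1 and 0.8.

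**Figure D2:**
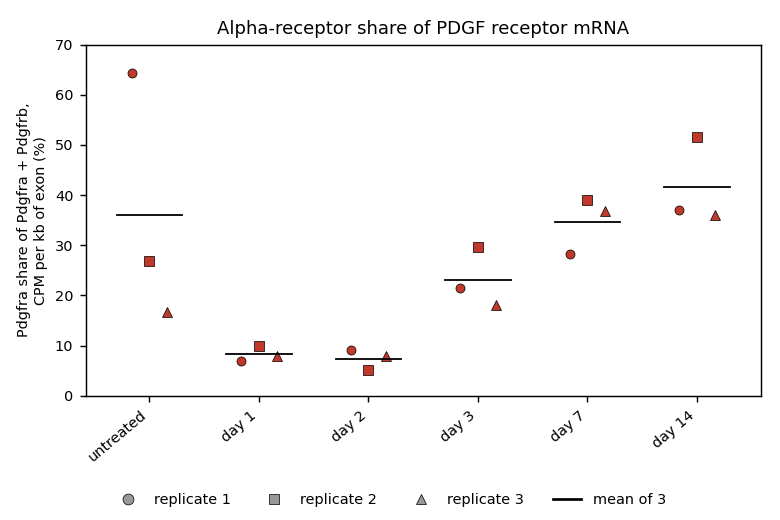
Share of Pdgfra in the summed Pdgfra and Pdgfrb level per kb (percent, linear axis) in each library by group, with a bar at the mean of 3. All day 1 and day 2 libraries lie between 5.18% and 9.88%, and the untreated libraries range between 16.7% and 64.4%.

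The B chain gene, Pdgfb, encodes the ligand chain that binds both receptors and recruits pericytes to vessels. It stood at 2.23, 130.8 and 3.26 CPM in the untreated libraries, the second value from 5500 reads beside 41 and 52 in the other two. It had 11.5, 14.9 and 16.6 CPM at day 1, 12.7, 6.59 and 9.42 CPM at day 2, and 12.9, 22.3 and 22.9 CPM at day 3. It had 16.3, 5.88 and 12.9 CPM at day 7 and 2.95, 4.22 and 10.4 CPM at day 14. All 12 libraries of day 1 to day 7 lay above untreated replicates 1 and 3 and below untreated replicate 2. At day 14 replicate 1 lay between untreated replicates 1 and 3, and the other two were above both.

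With all libraries the log2 fold change of Pdgfb was −1.66 at day 1 and −1.23 at day 3 (adjusted p = 0.303 and 0.486), and −1.96 at day 7 and −2.96 at day 14 (adjusted p = 0.241 and 0.139) in edgeR. Without untreated replicate 2 the direction turned at all 5 times. Pdgfb was then higher at day 1 (log2 fold change 2.39, adjusted p = 0.0167), day 3 (2.80, adjusted p = 0.0109) and day 7 (2.09, adjusted p = 0.0453) in edgeR. At day 2 (1.80, adjusted p = 0.0561) and day 14 (1.09, adjusted p = 0.436) it did not pass. Over the untreated group the level of this gene is therefore set by 1 library.

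The A chain gene, Pdgfa, encodes a ligand for the alpha receptor. It stood at 1.96, 5.28 and 2.69 CPM in the untreated libraries, at 5.77, 6.75 and 11.7 CPM at day 1, and at 3.38, 1.35 and 5.27 CPM at day 2. It had 8.56, 8.56 and 3.54 CPM at day 3, 5.99, 3.56 and 3.43 CPM at day 7, and 4.21, 1.87 and 4.89 CPM at day 14. Every day 1 library was above every untreated and every day 2 library, and all other days overlapped with untreated. Day 1 lay wholly above untreated for 16.1% of all genes, and day 2 wholly below day 1 for 7.96%. The log2 fold change was 1.27 at day 1 (SE 0.54, adjusted p = 0.153) and 1.04 at day 3 (adjusted p = 0.270) in edgeR, so neither passed, and at day 2 against day 1 it was −1.24 (adjusted p = 0.323, edgeR).

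The C chain gene, Pdgfc, encodes a ligand for the alpha receptor that is secreted in a latent form. It ranged between 5.71 and 9.27 CPM in untreated kidneys, 5.89 and 9.45 CPM at day 1, 2.20 and 10.7 CPM at day 2, 5.43 and 15.5 CPM at day 3, and 3.99 and 9.76 CPM at day 7. At day 14 it had 4.12, 4.83 and 5.09 CPM, all below the lowest untreated library, as 10.2% of all genes had. The log2 fold change against untreated ran between −0.60 at day 14 and 0.32 at day 3, and no adjusted p was under 0.05 in edgeR. The intervals of 2 SE on either side reached −1.05 to 1.03 at day 1 and −1.65 to 0.44 at day 14. Changes within these intervals are not excluded, and the intervals are not limits of what the test can detect.

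The D chain gene, Pdgfd, encodes a latent ligand of the beta receptor. It stood at 6.80, 9.73 and 6.95 CPM in the untreated libraries and ranged between 6.08 and 14.2 CPM over the libraries of day 1, day 2 and day 3. At day 7 it had 30.7, 9.44 and 11.1 CPM, and at day 14 it had 6.64, 6.33 and 7.74 CPM. Only replicate 1 of day 7 stood clear of the other libraries. Every day 14 library was below every day 7 library, a pattern held by 6.33% of all genes, and all days overlapped with untreated. The log2 fold change was 1.12 at day 7 against untreated (SE 0.43, adjusted p = 0.127) and −1.31 at day 14 against day 7 (SE 0.44, adjusted p = 0.320) in edgeR.

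**Figure D3:**
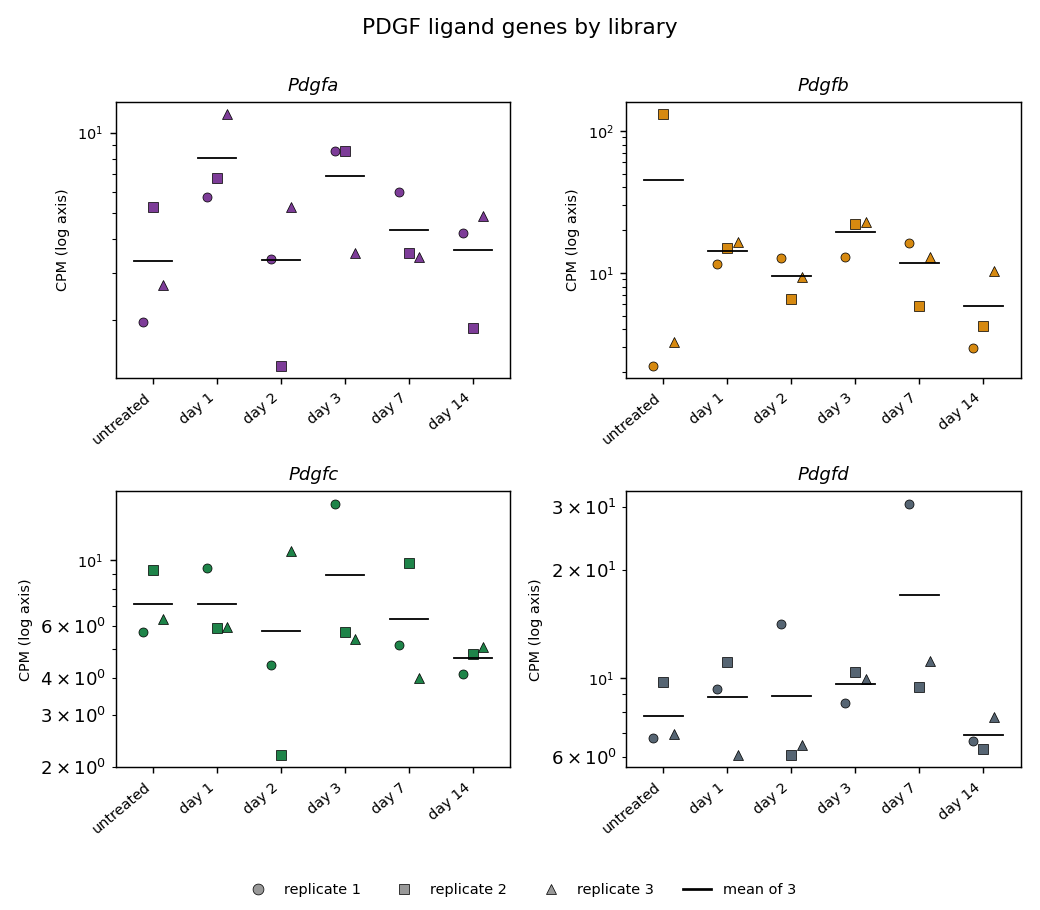
CPM of Pdgfa, Pdgfb, Pdgfc and Pdgfd in each library on a log axis, by group from untreated to day 14, with markers for replicates and a bar at the mean of 3. Untreated replicate 2 stands at 130.8 CPM of Pdgfb and day 7 replicate 1 at 30.7 CPM of Pdgfd.

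**Figure D4:**
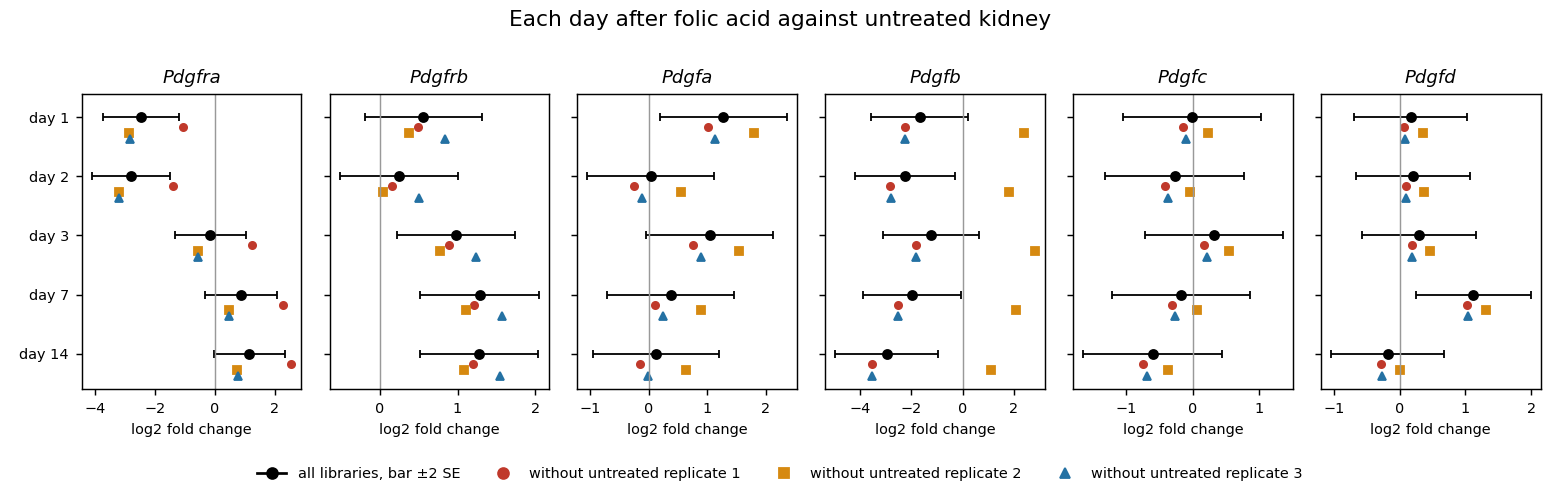
Log2 fold change of each PDGF gene on each day against untreated, with all libraries (black points, bars of 2 SE on either side) and without each untreated library in turn (coloured points). Without untreated replicate 2 the points of Pdgfb move to 1.09 to 2.80, and without untreated replicate 1 the points of Pdgfra move to the right at every time.

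Between genes, levels were compared as the median over the 3 libraries of CPM per kb of merged exon. The order of genes therefore depends on the annotated lengths. In untreated kidneys the order was Pdgfd (2.20), Pdgfc (1.24), Pdgfrb (1.23), Pdgfa (0.864), Pdgfb (0.783) and Pdgfra (0.375). Pdgfd lay wholly above Pdgfc, and the ranges of all other neighbours overlapped. At day 3 the order was Pdgfb (5.35), Pdgfd (3.15), Pdgfa (2.74), Pdgfrb (2.26), Pdgfc (1.12) and Pdgfra (0.615), with every pair of neighbours overlapping. At day 1 and day 2 Pdgfb led, at 3.58 and 2.26, and Pdgfra was last, wholly below its neighbour Pdgfc on both days.

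At day 14 the beta receptor gene led the order. Pdgfrb had 3.25, Pdgfd 2.10, Pdgfra 2.00, Pdgfa 1.35, Pdgfb 1.01 and Pdgfc 0.948 CPM per kb, and only Pdgfra lay wholly above the next gene. At day 7 Pdgfd (3.52), Pdgfrb (3.12) and Pdgfb (3.11) led, and all neighbours overlapped.

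PDGF chains are cut to their active form after synthesis and are bound by other proteins. Furin-like convertases process the A and B chains, tissue plasminogen activator (Plat) acts on the C chain, and urokinase (Plau) and matriptase (St14) act on the D chain. Of 13 such genes, all tested, 3 rose at day 1, 3 rose and 1 fell at day 2, 2 rose at day 3, 4 at day 7 and 2 by day 14 (edgeR). The shares of all genes that rose were 5.09%, 7.19%, 4.18%, 3.87% and 1.24% at the 5 times, and the shares that fell were 5.56%, 5.98%, 3.43%, 3.85% and 0.309%. The median log2 fold change of the 13 genes was 0.71 at day 1 and 0.26 at day 14, beside 0.05 and 0.04 over all genes.

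Plau stood at 239, 182 and 253 CPM at day 1 and at 65.3, 98.9 and 104 CPM in untreated kidneys, with no overlap. It rose at day 1 (log2 fold change 1.33, SE 0.26, adjusted p = 0.00206, edgeR), and this call held under all 14 alternatives. Plau was lower at day 7 than at day 1 (log2 fold change −1.17, adjusted p = 0.0121) and lower at day 14 than at day 2 (−1.31, adjusted p = 0.00394) in edgeR, a direction opposite to that of Pdgfra in the same comparisons. Sparc, a matrix protein that binds the B chain, stood at 103, 76.4 and 107 CPM at day 14 and at 25.0, 30.2 and 24.1 CPM in untreated kidneys. It rose at day 7 (log2 fold change 1.68, adjusted p = 0.00263) and day 14 (1.85, adjusted p = 0.00431) in edgeR, under all 14 alternatives at both times.

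A2m, whose product binds and carries PDGF, rose at day 2 (log2 fold change 4.20, adjusted p = 0.0132, edgeR), to 15.9 ± 11.4 CPM against 0.820 ± 0.720 CPM in untreated kidneys (SD, n = 3 each). Lrp1, an endocytic receptor that forms a complex with the beta receptor, rose at day 7 and day 14 (log2 fold change 1.82 and 2.62, adjusted p = 0.0413 and 0.0172, edgeR). Each of the Lrp1 calls held under 8 of 14 alternatives. St14 rose at day 7 (log2 fold change 1.73, adjusted p = 0.0144, edgeR) under 11 of 14 alternatives. Cspg4, the NG2 proteoglycan of pericytes, rose at day 7 (1.41, adjusted p = 0.0493, edgeR) and lost that call whenever any 1 library of either group was left out.

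Of 33 genes that relay the receptor signal, 5 rose at day 1, 4 rose and 1 fell at day 2, 1 rose at day 3, 2 rose at day 7 and none changed at day 14 (edgeR). Among all genes the shares that rose at the first 4 of these times were 5.09%, 7.19%, 4.18% and 3.87%, and 5.98% fell at day 2. The median log2 fold change of the relay genes was 0.19 at day 1 and 0.15 at day 14, beside 0.05 and 0.04 over all genes. Stat3, a transcription factor activated by many cytokine receptors as well, stood at 85.0, 74.6 and 68.6 CPM at day 1 and at 14.6, 18.1 and 20.1 CPM in untreated kidneys. It rose at day 1 (log2 fold change 2.11, SE 0.27, adjusted p = 5.88e-05), day 2 (2.31), day 3 (1.78) and day 7 (1.50, adjusted p = 0.00202) in edgeR, each under all 14 alternatives. Ptpn11, the phosphatase SHP2 that docks on both receptors, rose at day 1 to 35.5 ± 4.56 CPM, against 15.4 ± 2.46 CPM in untreated kidneys (SD, n = 3 each; log2 fold change 1.20, adjusted p = 0.00454, edgeR). Mapk3, the kinase ERK1, rose at day 2 (log2 fold change 1.62, adjusted p = 0.0114, edgeR) under 10 of 14 alternatives. Of 13 genes that restrain the receptors by dephosphorylation, ubiquitination or feedback, 1 rose at day 1, and none changed at the other times, with 1 to 2 genes at an unadjusted p under 0.05 in edgeR and 0 to 1 called by DESeq2. It was Ptprj, a receptor phosphatase (log2 fold change 1.17, adjusted p = 0.0439, edgeR), and the call was lost whenever 1 of the 6 libraries compared was omitted.

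The PDGF receptors belong to a family with the receptors for colony-stimulating factor 1, stem cell factor, the Flt3 ligand and vascular endothelial growth factor (VEGF). Of 14 related receptors and ligands, 13 were tested; 2 rose and 4 fell at day 1, 2 rose and 3 fell at day 2 and at day 3, 2 rose and 2 fell at day 7, and 1 rose at day 14 (edgeR). Over all genes 5.09% rose and 5.56% fell at day 1, 7.19% and 5.98% at day 2, and 4.18% and 3.43% at day 3. At day 7 3.87% rose and 3.85% fell, and at day 14 1.24% rose. The lists of this report share some genes, whose changes are counted in each list. Kdr and Flt1 are also in the endothelial list below, and Csf1r is in the macrophage list. Cspg4 is in both the activation and the pericyte list. Csf1, the ligand of the macrophage growth factor receptor, rose at day 1 to 16.1 ± 3.65 CPM, against 0.852 ± 0.413 CPM in untreated kidneys (SD, n = 3 each; log2 fold change 4.20, adjusted p = 7.96e-05, edgeR). Il34, the other ligand of that receptor, rose at day 1 as well (2.76, adjusted p = 0.00333). Its receptor gene Csf1r fell at day 1 (log2 fold change −2.01, adjusted p = 0.00226, edgeR) and was higher at day 7 than at day 1 (1.98, adjusted p = 0.00658). Kdr, the main VEGF receptor of endothelium, fell at day 2 to 2.11 ± 0.966 CPM, against 21.1 ± 7.74 CPM in untreated kidneys (log2 fold change −3.26, adjusted p = 8.36e-05, edgeR). Vegfa, its ligand, fell at day 2 as well (−1.62, adjusted p = 4.41e-05).

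A list of 17 early genes that PDGF induces in cultured fibroblasts, which many other stimuli induce too, had 15 genes tested. Of these, 8 rose at day 1, 7 on day 2, 8 on day 3, 9 by day 7 and 4 by day 14, and none fell (edgeR), where 5.09%, 7.19%, 4.18%, 3.87% and 1.24% of all genes rose. The median log2 fold change of the list was 2.34 at day 1 and 1.81 at day 14, beside 0.05 and 0.04 over all genes. Klf6, a zinc-finger transcription factor, rose at day 1 (3.06, adjusted p = 0.000206) and at day 7 (2.83, adjusted p = 0.000858) in edgeR. Ccl2, a chemokine that attracts monocytes, rose at day 7 to 18.8 ± 5.80 CPM, against 0.0939 ± 0.0409 CPM in untreated kidneys (log2 fold change 7.75, adjusted p = 6.57e-06, edgeR). Myc rose at day 1 and day 2 (2.86 and 3.76, adjusted p = 0.00163 and 0.000193). It was lower at day 14 than at day 2 (log2 fold change −3.14, adjusted p = 0.00153, edgeR), where Pdgfra was higher.

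These libraries are of whole kidney, and fewer cells of a type and less RNA per cell cannot be told apart in them. Marker lists of the cells that carry PDGF receptors were therefore read beside the receptors. Of 16 fibroblast and matrix genes, 6 rose and 1 fell at day 1, 5 rose and 2 fell at day 2, 7 rose at day 3, 8 rose at day 7 and 7 rose at day 14 (edgeR). The shares of all genes that rose at those times were 5.09%, 7.19%, 4.18%, 3.87% and 1.24%, and 5.56% fell at day 1 and 5.98% at day 2. The median log2 fold change of the list was 0.70 at day 1 and 2.34 at day 14, beside 0.05 and 0.04 over all genes. The summed level of the list was 50.8 to 65.0 CPM in untreated kidneys, 97.7 to 138 CPM at day 1, 254 to 456 CPM at day 7 and 257 to 563 CPM at day 14. In the list 5 genes, Lum, Fbln1, Thy1, Gli1 and Mfap5, had no read in 1 or more libraries.

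The genes of that list did not move as one. Col1a1, a chain of type I collagen, stood at 25.5, 20.2 and 27.3 CPM at day 1 and at 3.21, 3.66 and 1.06 CPM in untreated kidneys. It rose at all 5 times (log2 fold change 3.18 at day 1, adjusted p = 0.00276, and 4.25 at day 14, adjusted p = 0.00200, edgeR). Dcn, the proteoglycan decorin of resident fibroblasts, stood at 1.24, 0.169 and 2.38 CPM at day 2, against 12.5, 9.51 and 9.02 CPM in untreated kidneys. It fell at day 2 (log2 fold change −2.88, adjusted p = 0.00429, edgeR) and was higher at day 14 than at day 2 (4.59, adjusted p = 0.000340). Tcf21, a transcription factor of kidney stroma, stood at 6.14 ± 1.44 CPM at day 7 and 1.05 ± 0.514 CPM at day 1 (SD, n = 3 each), and was higher at day 7 (2.53, adjusted p = 0.00442, edgeR) and at day 14 than at day 2 (4.29, adjusted p = 7.92e-05). In the day 14 against day 2 comparison, where Pdgfra was higher, 6 of the 16 genes were higher and none lower, against 4.68% of all genes higher. These included the collagen genes Col3a1 (2.20, adjusted p = 0.00249) and Col1a2 (2.02, adjusted p = 0.00582) in edgeR. Col1a1 did not pass in that comparison (0.81, adjusted p = 0.415).

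Of 12 tested genes of pericytes and vascular smooth muscle, out of 13, 2 fell at day 1, 1 rose and 4 fell at day 2, 2 fell at day 3, 1 rose at day 7 and none changed at day 14 (edgeR). Over all genes 5.56% fell at day 1, 7.19% rose and 5.98% fell at day 2, 3.43% fell at day 3 and 3.87% rose at day 7. The median log2 fold change of the list was −0.35 at day 1, −0.93 at day 2 and 0.27 at day 14. Their summed level was 55.9 to 86.4 CPM at day 1 and 60.4 to 84.0 CPM at day 2, against 132 to 179 CPM in untreated kidneys. This sum includes Anpep, which proximal tubules also express, and it was not computed without that gene. Acta2, the actin of smooth muscle and myofibroblasts, was the gene that rose at day 2. It stood at 4.97, 55.3 and 13.9 CPM at day 2 and at 3.59, 2.66 and 1.94 CPM in untreated kidneys, with no overlap (log2 fold change 3.16, adjusted p = 0.0133, edgeR). The highest value came from the shallowest library, and the call was lost without that library, without untreated replicate 2 or 3, in limma-voom and in the fit of only these groups. Abcc9, a potassium channel subunit of pericytes, fell at day 2 (log2 fold change −2.96, adjusted p = 0.000383, edgeR), to 1.55 ± 0.712 CPM against 12.6 ± 3.05 CPM in untreated kidneys (SD, n = 3 each). Anpep fell at day 1 (log2 fold change −2.92, adjusted p = 0.000853, edgeR), and this peptidase is also abundant in the brush border of proximal tubules. Of 5 mesangial genes, 2 fell at day 1 and at day 2, 1 rose and 1 fell at day 3 and at day 7, and 1 rose at day 14. Besides the shares given above, 4.18% of all genes rose at day 3, 3.85% fell at day 7 and 1.24% rose at day 14. Itga8, an integrin subunit of the mesangium, fell at day 2 to 0.742 ± 0.348 CPM, against 8.94 ± 2.25 CPM in untreated kidneys (log2 fold change −3.50, adjusted p = 0.000836, edgeR). Serpine2, a protease inhibitor also in that list, rose at day 7 (4.47, adjusted p = 0.000615).

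Among cells that make the ligands, 4 of 12 endothelial genes fell at day 1, 6 each on day 2 and day 3, and 1 by day 7, and none changed by day 14 or rose at any time (edgeR). Among all genes the shares that fell were 5.56%, 5.98%, 3.43% and 3.85% on day 1, day 2, day 3 and day 7. The median log2 fold change of the endothelial genes was −0.83, −1.83, −1.60 and −0.58 at those times. The summed endothelial level was 31.2 to 80.3 CPM at day 2, against 114 to 202 CPM in untreated kidneys. The list of macrophage and monocyte markers held 12 genes. Of these, 2 were up and 1 was down on both of the first days, when 5.09% and 7.19% of all genes rose. A further count gave 6 up on day 3, 10 by day 7 and 7 by day 14, where 4.18%, 3.87% and 1.24% of all genes rose. The 12 genes summed to 245 to 429 CPM at day 7, against 26.2 to 56.7 CPM in untreated kidneys. Of 7 platelet genes only 4 had enough reads to be tested and none changed against untreated, and between 1 and 5 of the 7, such as Pf4 and Ppbp, had no read in a given library. Of 6 podocyte genes, 1 fell at day 1, 3 fell at day 2, 2 fell at day 3 and at day 7, and none changed at day 14. The shares of all genes that fell at those times are the ones given above beside the endothelial genes. Where none of a list changed at day 14, an unadjusted p under 0.05 in edgeR was found for 4 relay, 2 restraint, 1 pericyte, 1 endothelial, 1 platelet and 2 podocyte genes, and DESeq2 called 2, 1, 1, 0, 0 and 1 genes of these lists in the same order. The part of these cell types in the levels of the PDGF genes was not tested. In untreated replicate 2, the library with 130.8 CPM of Pdgfb, the platelet genes summed to 1.26 CPM, the lowest value of the 3 untreated libraries. The endothelial genes summed to 202 CPM there, the highest of the 3, against 114 and 149 CPM in the others. That library was also the highest of the 3 for the mesangial genes (301 CPM, against 142 and 185) and the pericyte genes (179 CPM, against 132 and 141). It was in the middle for the macrophage and podocyte genes (45.5 and 152 CPM) and lowest for the fibroblast and matrix genes (50.8 CPM). All these differences are small beside that of Pdgfb, and the source of its reads was not tested.

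**Figure D5:**
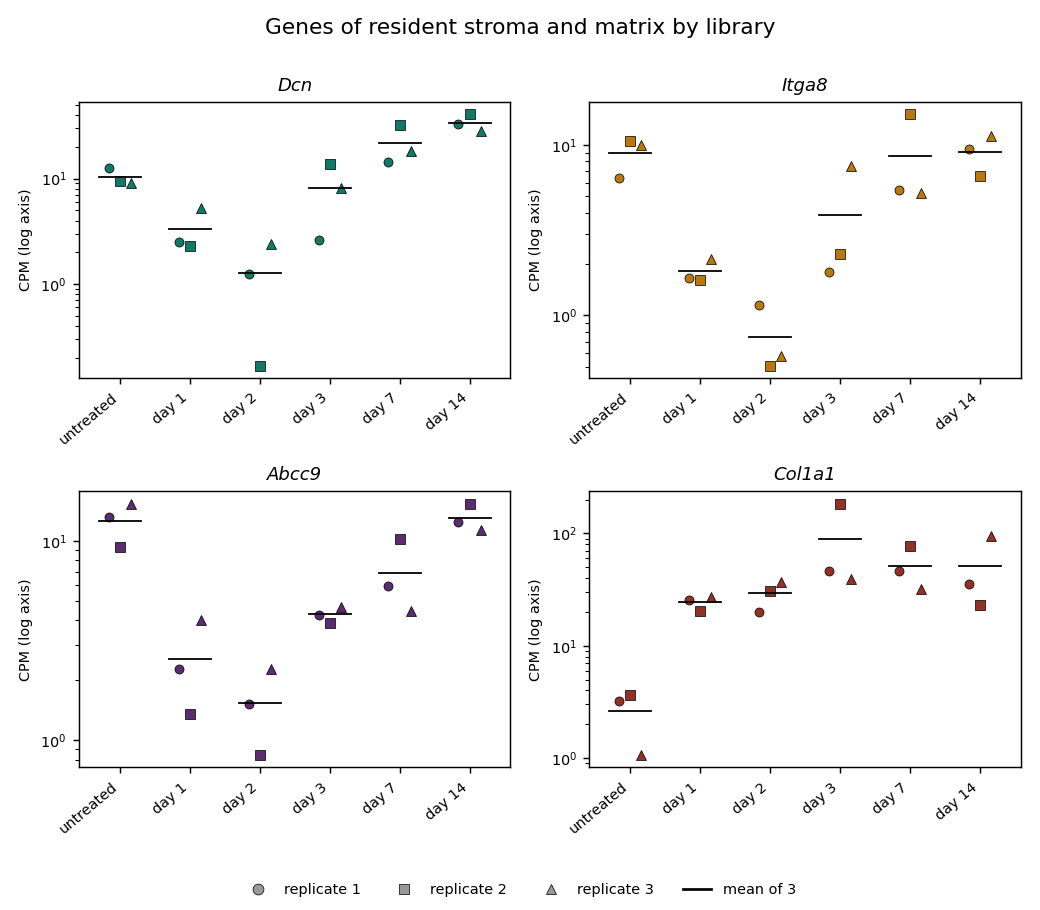
CPM of Dcn, Itga8, Abcc9 and Col1a1 in each library on a log axis, by group from untreated to day 14, with markers for replicates and a bar at the mean of 3. Dcn, Itga8 and Abcc9 lie lowest at day 2, where Dcn averaged 1.27 CPM, and Col1a1 is above its untreated values in all other libraries.

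For each PDGF gene, genes with the most similar log2 level over the 18 libraries were ranked, up to 3 for each, out of 7939 or 7940 genes with a mean of at least 5 CPM. Those for Pdgfra included Gucy1a1 (Pearson r = 0.903) and Gpc6 (0.901), and Pdgfrb was closest to Col1a2 (0.907), Stra6 (0.884) and Casp4 (0.884). Pdgfa was closest to Fermt1 (0.790), Kif24 (0.780) and 4632427E13Rik (0.755). The points share their libraries and the 6 groups, so these values describe likeness over the time course only. Gucy1a1, a subunit of soluble guanylate cyclase, stood at 7.40 to 16.3 CPM in untreated kidneys, 1.78 to 3.24 CPM at day 1, 12.8 to 25.3 CPM at day 7 and 22.5 to 33.6 CPM at day 14.

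For the other 3 ligands, the gene most like each shared the ligand's highest library. Pdgfb was closest to Ets2 (Pearson r = 0.897), Faf2 (0.830) and C2 (0.817), and in untreated kidneys Ets2 stood at 11.0, 126.8 and 12.5 CPM, with replicate 2 high as for Pdgfb. Pdgfd was closest to Ptpa (0.865), Tspyl1 (0.836) and Srp54c (0.767). Ptpa stood at 145.0, 13.4 and 18.1 CPM at day 7, and replicate 1 was the high library as for Pdgfd. Pdgfc was closest to Htra1 (0.782), Copg2 (0.781) and Nub1 (0.767), and at day 3 Htra1 stood at 50.7, 11.0 and 9.66 CPM, with replicate 1 high as for Pdgfc. Each of these genes was chosen by its likeness to the member, the shared high library enters that likeness, and the correlations were not recomputed without it.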

How the data were processed

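RNA was measured in 18 mouse kidney libraries. Per the labels' protocols, total RNA was extracted with TRIzol and amplified with NuGEN SPIA reagents. The deposited files hold raw counts of reads per Ensembl gene, and a second set of files holds the authors' normalized signal, which proved to be the counts divided by 1 size factor per library and served only as a check of the columns. The submitters' processing notes name cutadapt, TopHat2 2.07, HTSeq, DESeq and build NCBIM37. The counts were made without molecular identifiers, so amplified copies are included. Symbols were found for 32919 of 37991 identifiers, and 5 tallies of unassigned reads were left out. A related ligand, Flt3l, was not matched.

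Counts were scaled with the trimmed mean of M values, filtered with filterByExpr, and fitted over all 6 groups in edgeR 4.0.16 (R 4.3.3). The alternatives used the test of DESeq2 1.42.0, limma 3.58.1 (voom), and edgeR with scaling by relative log expression or by library totals. Further edgeR fits had no low-count filter, mitochondrial genes left out, a replicate block, only the groups compared, or each library left out in turn. The procedure was tested on simulated data. No libraries of the same group were copies of each other, and libraries of different groups were not compared. Replicate numbers came from titles and carried no pairing: deviations of same-numbered libraries from their group means correlated at −0.0543 to 0.0416, and 5 of 18 libraries correlated best with their own number. Log2 levels for likeness used a prior count of 2. Levels per kb used merged exon lengths of GENCODE M21, which is in build GRCm38, whereas the counts were made on NCBIM37.

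The members, the gene lists and the tests were chosen with earlier results of these data known, and day 7 against day 1 and day 14 against day 2 were added after the values were seen. All 6 members are described. Of each list, up to 4 genes per comparison were eligible to be named, ranked by size of change among the genes that passed. They had to average at least 5 CPM in whichever group was higher, and their groups could not overlap. One gene among those most like a member is not reported here.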

Additional observations from a re-analysis of the deposited data

Results flagged for a closer look

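Pdgfra differed between times after folic acid by a direct test. It was higher at day 7 than at day 1, with a log2 fold change of 3.34, and higher at day 14 than at day 2, with a log2 fold change of 3.96 (adjusted p = 0.00644 and 0.00158, edgeR quasi-likelihood test, 3 libraries in each group). All 3 libraries of the later time were above all 3 of the earlier one in both comparisons, and no untreated library enters either of them. Both comparisons were added after the values had been seen, and their p-values do not account for that choice. Groups of 3 are too small to be screened for outlying libraries. The values of Pdgfra in untreated replicate 1 and of Pdgfb in untreated replicate 2 are therefore given with and without those libraries in the text above.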

How the results depend on the processing

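The calls of Pdgfra at day 7 against day 1, at day 14 against day 2 and across the 6 groups kept their direction and their side of the threshold under every alternative run. The cause of the changes below was not tested. Scaling by library totals moved the median log2 fold change of all genes to 0.19, 0.28, 0.64, 0.74 and 0.36 from day 1 to day 14, and the genes called higher and lower to 885 and 672 at day 1, 1450 and 651 at day 2, 2042 and 196 at day 3, 2390 and 175 at day 7, and 417 and 18 at day 14 (857 and 935, 1210 and 1006, 703 and 577, 651 and 647, and 208 and 52 with the trimmed mean). It called 1 member at day 3, 2 at day 7, 1 at day 3 against day 2 and 3 across the groups, and 10 relay, 2 restraint and 1 podocyte gene across the groups, against 6, 0 and 3. It also turned Pdgfc to 0.11 at day 1, 0.036 at day 2, 0.51 by day 7 and 0.40 between day 7 and day 1, Pdgfra to 0.47 at day 3 and −0.084 at day 14 against day 7, Pdgfd to 0.13 at day 14, and Pdgfb to 0.22 at day 7 against day 1. With no low-count filter, 0 members were called at day 7, 1 at day 14, 1 at day 3 against day 2 and 2 across the groups, 3 restraint and 2 platelet genes were called, and Pdgfc at day 1 was 0.012. DESeq2 called 1 member at day 14, 1 at day 3 against day 2 and 2 across the groups, with 7 activation, 3 restraint and 2 platelet genes against 4, 0 and 1 in edgeR. Limma-voom called 0 members at day 1 and 0 at day 2 and 0 platelet genes, and gave Pdgfra 0.21 and Pdgfb 0.35 at day 3 and Pdgfa −0.037 at day 14 against day 2. Fits of only the groups compared called 0 members at day 1 and 0 at day 2, with Pdgfra at an adjusted p of 0.0520 and 0.0659 in edgeR. The replicate block, for numbers that carry no pairing, called 0 members at day 7, where Pdgfrb had a log2 fold change of 1.33 (adjusted p = 0.0517, edgeR), called 0 platelet genes, and gave Pdgfa −0.048 at day 2 and Pdgfd −0.025 at day 2 against day 1.

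With 1 library left out at a time, 0 to 2 members were called at day 1, 0 to 1 on each of days 3, 7 and 14, and 1 to 2 across the groups, with 0 to 2 restraint, 0 to 2 platelet and 1 to 3 podocyte genes. Directions turned within these log2 ranges. Against untreated, Pdgfb ran between −2.23 and 2.39 at day 1, −2.81 and 1.80 at day 2, −1.81 and 2.80 at day 3, −2.53 and 2.09 at day 7, and −3.67 and 1.09 at day 14, and Pdgfra ran between −0.91 and 1.23 at day 3. Without untreated replicate 1 the member called at day 2 was Pdgfb, lower (adjusted p = 0.0480, edgeR), not Pdgfra. Pdgfa ran between −0.43 and 0.55 at day 2 and −0.15 and 0.65 at day 14. Pdgfc ran between −0.27 and 0.23 at day 1, −1.06 and 0.076 at day 2, −0.35 and 0.58 at day 3, and −0.64 and 0.066 at day 7, and Pdgfd between −0.029 and 0.38 at day 1 and −0.32 and 0.39 at day 2. Between days, Pdgfc ran between −1.05 and 0.088 at day 2 against day 1, −0.080 and 1.38 at day 3 against day 2, −0.96 and 0.17 at day 7 against day 3, −0.67 and 0.033 at day 14 against day 7, −0.64 and 0.095 at day 7 against day 1, and −0.69 and 0.45 at day 14 against day 2. Pdgfd ran between −0.49 and 0.23 at day 2 against day 1, −0.11 and 0.61 at day 3 against day 2, and −0.58 and 0.13 at day 14 against day 2. Pdgfa ran between −0.51 and 0.064 at day 14 against day 7 and −0.24 and 0.55 at day 14 against day 2, Pdgfb between −0.62 and 0.019 at day 7 against day 1, and Pdgfrb between −0.37 and 0.26 at day 14 against day 7. Depth limits the members in replicate 2 of day 2, where Pdgfra rested on 4 reads.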

Other observations

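Besides the PDGF genes, the libraries with a lone high value of a member held other genes at least 10-fold above both other libraries of their group and at 5 CPM or more. There were 32 such genes in untreated replicate 2, Pdgfb among them, 18 in untreated replicate 1, 23 in replicate 1 of day 7 and 33 in replicate 1 of day 3. The range over the other libraries, replicate 2 of day 2 with its 158 left aside, was 14 to 47. Pdgfra in untreated replicate 1 and Pdgfd in day 7 replicate 1 did not reach the 10-fold mark.

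Genes of the tubule segments, measured beside the PDGF genes, were lowest in the first days. The 8 proximal tubule genes summed to 620 to 727 CPM at day 1 and 1521 to 2947 CPM at day 14, against 4208 to 4750 CPM in untreated kidneys, and 7 of the 8 fell at each of day 1, day 2, day 3 and day 7 and 2 at day 14 (edgeR). The 6 loop and distal tubule genes summed to 208 to 395 CPM at day 1 and 1657 to 2299 CPM at day 14, against 1623 to 2242 CPM in untreated kidneys. Of them 5 fell at day 1 and none at day 14. The 6 collecting duct genes summed to 20.9 to 47.1 CPM at day 1, against 67.7 to 112 CPM in untreated kidneys. Of these genes 3 fell at day 1, 2 at day 2 and none at day 3, day 7 or day 14.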
